A study of Mus musculus with 8 samples.

Results

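H19, Igf2 and 8 further imprinted genes were followed in cultured mouse myotubes, the multinucleate fibres that form when muscle precursor cells fuse. The genes were the rows of the deposited expression table whose Ensembl identifiers map to the symbols H19, Igf2, Cdkn1c, Peg3, Grb10, Mest, Plagl1, Rian, Dlk1 and Meg3. All 10 were found among the 35275 genes of the table. Levels were given as FPKM, in which fragments are divided by transcript length and library size, so that levels of different genes are compared per length. Averaged over the 8 libraries, 7 of the 10 genes reached 1 FPKM or more and entered the tests, with 10981 genes in all. The remaining 3, Rian, Dlk1 and Meg3, lay below that level.

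The myotubes came from C57BL6/J mouse myoblasts differentiated in horse serum medium, and no altered gene is named for any group. They received extracellular vesicles (EVs) isolated with a polymer-based method, either MPC EVs or, in the control groups, EVs from growth medium. RNA was taken after 12 h or 24 h, which gave 4 groups of 2 libraries, named control 12 h, MPC EV 12 h, control 24 h and MPC EV 24 h. The controls therefore also received vesicles, no group of myotubes without vesicles was included, and the labels do not spell out MPC. Whether the 2 libraries of a group were separate cultures is not stated. The p-values then measure only the spread between libraries, and that spread may be technical.

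Imprinted genes are expressed mainly from the copy inherited from a single parent, marked by DNA methylation laid down in the germ line. Many act on growth. FPKM values do not separate the parental copies, so whether any gene named here was imprinted in these myotubes was not measured. H19, a long noncoding RNA read from the maternal copy, and Igf2, a growth factor read from the paternal copy, share enhancers and an imprinting control region on distal chromosome 7, and both are switched on during muscle differentiation. Meg3 and Rian, maternal noncoding RNAs, lie beside the paternal gene Dlk1 on distal chromosome 12, in a domain that is active in muscle stem cells.

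The libraries held 16324184 to 20187736 fragments. Control 12 h replicate 2 stood apart from its partner, with a correlation across tested genes of 0.947 between the pair against 0.992 to 0.996 in the other groups. On the log2 scale it differed from replicate 1 by a median of -1.02 over 990 long genes low in GC and of 0.16 over 942 short genes high in GC. Many results that rest on the control 12 h group are therefore given with and without it, and the others with it only. All 8 myotube markers were tested, and their summed level was 12097 to 13910 FPKM in control 12 h, 13808 to 14288 in MPC EV 12 h, 8790 to 9112 in control 24 h and 11274 to 12401 in MPC EV 24 h. The summed level of 7 progenitor markers was 754 to 810, 701 to 731, 528 to 533 and 536 to 549 FPKM in the same order. That of 5 cycling markers was 117 to 124, 55.0 to 66.1, 102 to 104 and 77.4 to 87.4 FPKM. The summed level of 7 fibroblast markers was between 5.79 and 13.8 FPKM, lower in the MPC EV libraries at each time. Col1a1 (mean 6.85 FPKM) weighs most in that sum, and 5 of the 7 averaged under 1 FPKM. Acta1 (mean 6893 FPKM) weighs most in the myotube sum. The summed level of 5 endothelial markers was at most 0.491 FPKM, and that of 5 macrophage markers at most 2.18 FPKM. In RNA from a whole culture, fewer cells of a type and less RNA per cell cannot be told apart.

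Several of these genes carry microRNAs, which are shown because the level of the host is what the table measured. No microRNA was measured itself. The hairpin of miR-675 lies wholly in the exon sequence of H19 (84 of 84 bases), while those of miR-483 in Igf2 and miR-335 in Mest lie outside the annotated exons of their hosts. The sequences are from RefSeq (GRCm38.p6) and capitals mark the seed, bases 2 to 8, which pairs with targets. No seed was shared among the 6.
miR-675-5p (H19): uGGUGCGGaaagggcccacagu
miR-675-3p (H19): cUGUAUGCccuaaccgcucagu
miR-483-5p (Igf2): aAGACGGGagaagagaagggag
miR-483-3p (Igf2): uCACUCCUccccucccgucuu
miR-335-5p (Mest): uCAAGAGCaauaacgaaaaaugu
miR-335-3p (Mest): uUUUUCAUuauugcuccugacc

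The 10 genes ranged from the top of the expression table to the detection limit. H19 ranked 1 of 35275 genes by level in each of the 8 libraries, with a mean of 13934 FPKM. Acta1, the skeletal muscle actin, came next among all genes with a mean of 6893 FPKM. Igf2 had a mean of 1138 FPKM and ranked between 36 and 63 in the single libraries. Cdkn1c followed with 135 FPKM, Peg3 with 102 FPKM and Grb10 with 77.3 FPKM. Mest (5.65 FPKM) and Plagl1 (2.19 FPKM) were low, and Rian (0.285 FPKM), Dlk1 (0.268 FPKM) and Meg3 (0.110 FPKM) rested on 11 to 61 fragments per library. The order changed with time. Cdkn1c came directly after Igf2 in both 12 h groups, while in both 24 h groups Peg3 and Grb10 lay above it, although the ranges of Grb10 and Cdkn1c overlapped in MPC EV 24 h. Neighbours in the order whose libraries overlapped were also Grb10 and Peg3, Mest and Plagl1, and Rian and Dlk1 in control 12 h, Rian and Meg3 in control 24 h, and Dlk1 and Rian in MPC EV 24 h.

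**Figure D1:**
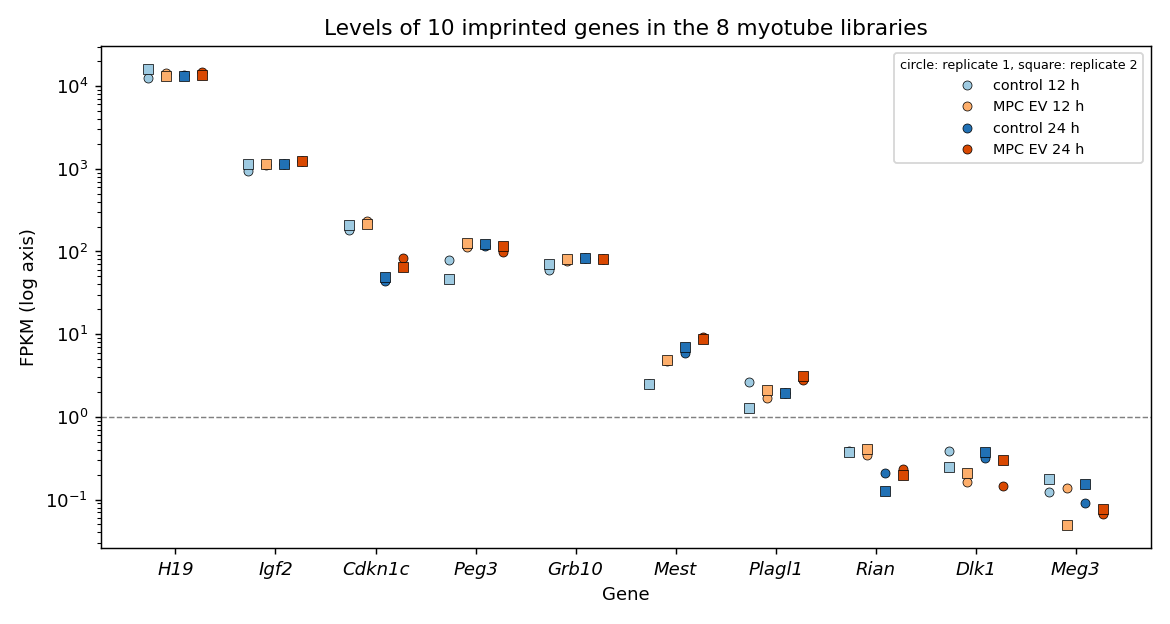
Level of each of the 10 imprinted genes in FPKM (log axis) in every library, coloured by group, with replicate 1 as a circle and replicate 2 as a square. The dashed line marks 1 FPKM, the mean level required for testing, and H19 lies highest in all 8 libraries while Rian, Dlk1 and Meg3 lie below the line.

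H19 (ENSMUSG00000000031) is a long noncoding RNA at chr7:142575529-142578143 on the minus strand of mm10. Its level was 12651 and 16186 FPKM (control 12 h), 14206 and 13130 (MPC EV 12 h), 13647 and 13194 (control 24 h) and 14869 and 13590.5 (MPC EV 24 h). The lowest and the highest value both belonged to control 12 h, and the groups overlapped in all 4 comparisons. H19 took 541756 to 734512 fragments per library, which is 2.89% to 3.70% of all fragments. No difference passed the limma test with Benjamini-Hochberg adjustment over all tested genes at 0.05, the test used for each adjusted p given here. At 12 h the log2 difference of MPC EV from control was -0.07 ± 0.14 (SE), with a 95% interval of -0.41 to 0.27 and an adjusted p of 0.735. This direction turned without control 12 h replicate 2, to 0.11, and with median-ratio scaling, to 0.07. At 24 h the log2 difference was 0.08 ± 0.14, with an interval of -0.26 to 0.42 and an adjusted p of 0.925.

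Igf2 (ENSMUSG00000048583) lies 72.6 kb from H19 at chr7:142650766-142666816 on the same strand and encodes insulin-like growth factor 2, a secreted ligand that acts on the IGF1 and insulin receptors. Its level was 941 and 1133 FPKM (control 12 h), 1118 and 1126 (MPC EV 12 h), 1148 and 1148 (control 24 h) and 1256 and 1235 (MPC EV 24 h). The MPC EV 24 h libraries held the highest values and control 12 h replicate 1 the lowest. The log2 difference of MPC EV from control was 0.12 ± 0.09 at 12 h (95% interval -0.10 to 0.34, adjusted p = 0.355) and 0.12 ± 0.09 at 24 h (95% interval -0.11 to 0.34, adjusted p = 0.732). Neither passed. Between 12 h and 24 h the log2 difference was 0.15 in the control and 0.15 in the MPC EV myotubes, with adjusted p-values of 0.296 and 0.308. Without control 12 h replicate 2, the difference between MPC EV and control at 12 h was 0.25 (adjusted p = 0.0407) and that over time in control myotubes was 0.29 (adjusted p = 0.0197). Both then passed, against the lone control 12 h replicate 1, which is assumed to vary like the other groups. Without control 12 h replicate 1, the 12 h difference was -0.01. Among the alternatives that kept all 8 libraries, the 12 h difference passed only with quantile normalization.

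The ratio of H19 to Igf2 in FPKM was 13.4 and 14.3 (control 12 h), 12.7 and 11.7 (MPC EV 12 h), 11.9 and 11.5 (control 24 h) and 11.8 and 11.01 (MPC EV 24 h). The 2 control 12 h libraries had the highest ratios, and the other 3 groups overlapped one another. The FPKM of Igf2 fits division by its longest annotated transcript of 4722 bases, so the ratio depends on that length. In fragments the ratio was between 5.33 and 6.92. A transcript on the other strand, Igf2os, shares 98 exon bases with Igf2 and was at 0.503 to 0.962 FPKM. The libraries were not strand-specific, so fragments in that stretch cannot be told apart.

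**Figure D2:**
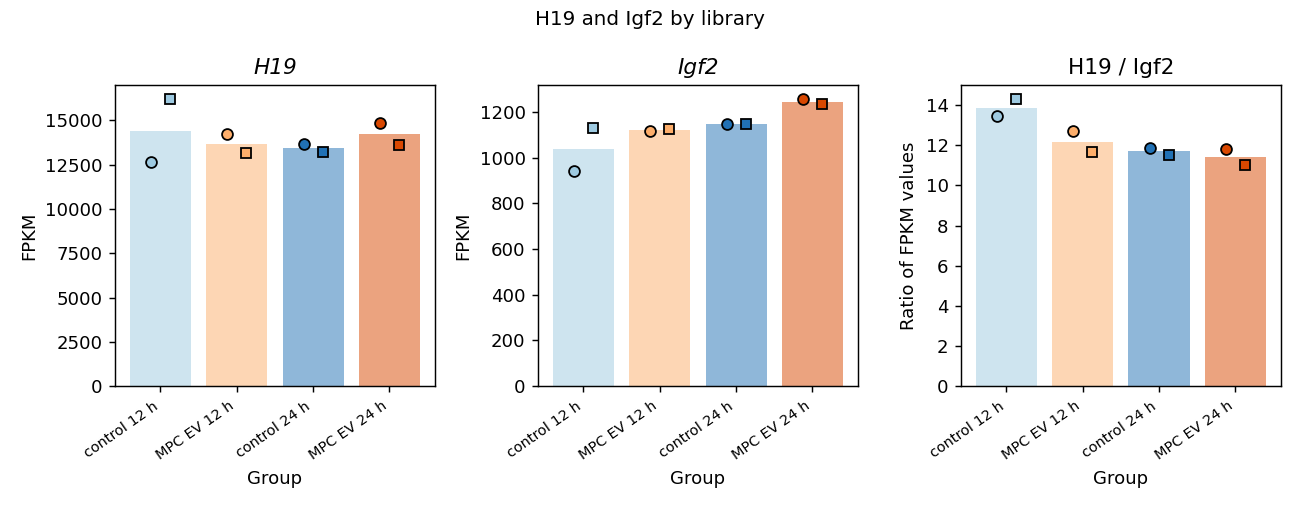
H19 (left) and Igf2 (middle) in FPKM and the ratio of the 2 values (right) in the 4 groups, with bars at the group mean and single libraries as points (circle, replicate 1; square, replicate 2). The 2 control 12 h libraries differ most for both genes, and their H19 to Igf2 ratios of 13.4 and 14.3 lie above those of the other 6 libraries.

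Cdkn1c (ENSMUSG00000037664, chr7:143458339-143461050) encodes p57, an inhibitor of cyclin-dependent kinases that acts as muscle precursors leave the cell cycle, and lies 880 kb from H19 in the neighbouring imprinted domain. It fell over time in both treatments. Its level was 183 and 208 FPKM (control 12 h), 231 and 214 (MPC EV 12 h), 43.9 and 49.4 (control 24 h) and 82.7 and 65.5 (MPC EV 24 h). All 12 h libraries lay above all 24 h libraries. The log2 difference of 24 h from 12 h was -2.06 ± 0.13 in control myotubes (adjusted p = 0.000504) and -1.59 ± 0.13 in MPC EV myotubes (adjusted p = 0.00161). Both calls held in all alternatives that were run, and the control value was -1.97 without control 12 h replicate 2. The summed myotube markers were also lower at 24 h in the controls (8790 to 9112 against 12097 to 13910 FPKM). They were lower with MPC EVs too (11274 to 12401 against 13808 to 14288). The sum of the progenitor markers, in which Myod1 (mean 514 FPKM) weighs most, was lower at 24 h in both treatments. By gene, the median log2 difference over time of the 6 tested progenitor markers was -0.55 in controls and 0.23 with MPC EVs. The summed cycling markers were lower at 24 h in the controls (102 to 104 against 117 to 124). With MPC EVs they were higher (77.4 to 87.4 against 55.0 to 66.1). Rrm2, with a mean of 57.8 FPKM, weighs most in that sum. By gene, the median log2 difference over time of the 5 cycling markers was 0.43 in controls and 0.47 with MPC EVs. The part of these markers in the fall of Cdkn1c was not tested.

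At 24 h Cdkn1c was higher in the 2 MPC EV libraries than in the 2 control libraries, with means of 74.1 ± 12.1 (SD, n = 2) and 46.6 ± 3.83 FPKM. The log2 difference was 0.65 ± 0.13 and did not pass, with an adjusted p of 0.0527. It passed when either control 12 h library was left out (adjusted p = 0.00950 without replicate 1 and 0.0112 without replicate 2). Those libraries are not in this comparison but enter the shared estimate of spread. It also passed with the 4 libraries of the comparison alone (adjusted p = 0.0374), with quantile normalization (0.0263) and with the GC and length correction (0.0209). At 12 h the log2 difference was 0.18 ± 0.13 (adjusted p = 0.314), and it was 0.43 and passed with a correction for GC and length (adjusted p = 0.0405). The difference between the 24 h and the 12 h effect was 0.47 ± 0.18 and did not pass (adjusted p = 0.250), though it did without control 12 h replicate 1, at 0.56 (adjusted p = 0.0391).

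Mest (ENSMUSG00000051855, chr6:30723547-30748465), a paternally expressed gene for an enzyme of the alpha/beta hydrolase fold family that is used as a marker of growing mesoderm and fat tissue, rose with MPC EVs at 12 h and with time in both treatments. Its level was 2.47 and 2.49 FPKM (control 12 h), 4.68 and 4.87 (MPC EV 12 h), 5.96 and 6.92 (control 24 h) and 9.16 and 8.66 (MPC EV 24 h). No group overlapped another. These values rested on 118 and 126 fragments in control 12 h and on 382 and 398 in MPC EV 24 h. The log2(FPKM + 0.5) scale makes the change of a low gene look smaller than it is. On it, MPC EV exceeded control at 12 h by 0.83 ± 0.10 (adjusted p = 0.00716). That call did not hold without MPC EV 12 h replicate 1 (adjusted p = 0.0519) or replicate 2 (adjusted p = 0.0529), with differences of 0.85 and 0.80, nor with the 4 libraries of the comparison alone (adjusted p = 0.107).

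At 24 h the log2 difference for Mest was 0.44 ± 0.10 and did not pass (adjusted p = 0.0796). It passed without control 12 h replicate 1 (adjusted p = 0.0360) or replicate 2 (adjusted p = 0.0383). Over time the log2 difference was 1.22 ± 0.10 in control (adjusted p = 0.00104) and 0.84 ± 0.10 in MPC EV myotubes (adjusted p = 0.00421), and both held in all alternatives. The gene Copg2, on the other strand, shares 912 exon bases with Mest and was at 21.1 to 24.96 FPKM. Copg2 did not pass in any comparison, with a log2 difference of -0.04 at 12 h (adjusted p = 0.681), but without strand its fragments and those of Mest cannot be told apart in the shared part.

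Peg3 (ENSMUSG00000002265, chr7:6703892-6730431), a paternally expressed zinc finger protein found in muscle stem cells and linked to stress and growth pathways, was lowest in control 12 h. Its level was 79.3 and 46.9 FPKM (control 12 h), 113 and 128 (MPC EV 12 h), 115 and 122 (control 24 h) and 97.3 and 116 (MPC EV 24 h). Both control 12 h libraries lay below the other 6, which overlapped between groups at 24 h. MPC EV exceeded control at 12 h by 0.97 ± 0.23 on the log2 scale (adjusted p = 0.0383), and control 24 h exceeded control 12 h by 0.95 ± 0.23 (adjusted p = 0.0391). Control 12 h replicate 2 was the lowest library, and without it both differences were smaller but passed, at 0.60 (adjusted p = 0.0154) and 0.57 (adjusted p = 0.0114).

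The 12 h call for Peg3 did not hold when any of the libraries outside the control 12 h group was left out, with adjusted p-values of 0.0710 to 0.163, nor without a filter on low values (0.0708), with its 4 libraries alone (0.175) or with a replicate block (0.0709). The call over time in controls did not hold in the same 6 cases either, with adjusted p-values of 0.0714 to 0.193, nor in those 3 settings (0.0754, 0.148 and 0.0742). At 24 h the log2 difference of MPC EV from control was -0.15 ± 0.23 (adjusted p = 0.916). The difference between the 24 h and the 12 h effect was -1.13 ± 0.33 and did not pass (adjusted p = 0.182), except without control 12 h replicate 1, when it was -1.502 (adjusted p = 0.000343).

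The promoters of Mest and Peg3, the members that passed at 12 h, are shown because both differ between the 12 h groups. Each runs from 250 bases before to 50 bases after an annotated start (RefSeq, GRCm38.p6), and for Mest it is 1 of 3 such entries. Capitals mark an E-box, CANNTG, the motif read by the MyoD family of muscle regulators, which was searched on both strands and reads alike on each.
Mest, chr6:30737800-30738099, plus strand: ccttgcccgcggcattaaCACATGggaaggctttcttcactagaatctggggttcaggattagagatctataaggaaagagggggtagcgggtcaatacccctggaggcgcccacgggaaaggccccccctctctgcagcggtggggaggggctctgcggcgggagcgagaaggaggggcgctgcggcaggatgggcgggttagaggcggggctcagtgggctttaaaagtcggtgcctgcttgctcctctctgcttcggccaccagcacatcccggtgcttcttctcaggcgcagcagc
Peg3, chr7:6730370-6730669, minus strand: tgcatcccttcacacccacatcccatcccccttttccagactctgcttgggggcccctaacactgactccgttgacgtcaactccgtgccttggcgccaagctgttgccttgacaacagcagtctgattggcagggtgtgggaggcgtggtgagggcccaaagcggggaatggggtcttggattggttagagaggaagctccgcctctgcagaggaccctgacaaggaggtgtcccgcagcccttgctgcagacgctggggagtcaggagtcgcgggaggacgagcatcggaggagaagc
The Mest window held 1 match and the Peg3 window 0, while 72.3% of 32851 promoter windows of this length held at least 1. The windows held 17 and 13 CG dinucleotides, against a median of 7 over all windows. Of the Mest entries not shown, chr6:30733256-30733555 held 2 E-boxes, 1 of them CAGCTG, a form found in 16.3% of all windows. The entry at chr6:30737803-30738102 held 1 E-box. Promoter entries were present for 8 of the 10 genes.

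Grb10 (ENSMUSG00000020176, chr11:11930508-12038683) encodes an adaptor that binds the insulin and IGF1 receptors and restrains their signal. Its level was 59.4 and 69.9 FPKM (control 12 h), 77.4 and 81.8 (MPC EV 12 h), 82.4 and 84.3 (control 24 h) and 81.0 and 82.0 (MPC EV 24 h). The control 12 h libraries were the 2 lowest and the other 6 lay within 7 FPKM of one another. Over time in control myotubes it rose by 0.37 ± 0.08 on the log2 scale (adjusted p = 0.0308), a call that did not hold when any library outside control 12 h was left out (adjusted p = 0.0601 to 0.179), without a filter (0.0531) or with its 4 libraries alone (0.147). The 12 h difference of MPC EV from control was 0.30 ± 0.08 and did not pass (adjusted p = 0.0537). It passed without control 12 h replicate 1, at 0.19 (adjusted p = 0.0352), and without replicate 2, at 0.42 (adjusted p = 0.00541). At 24 h the difference was -0.03 ± 0.08 (adjusted p = 0.951).

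Plagl1 (ENSMUSG00000019817, chr10:13060504-13131694), a zinc finger factor that in mice regulates a network of imprinted genes, H19 and Igf2 among them, was at 2.62 and 1.28 FPKM (control 12 h), 1.68 and 2.11 (MPC EV 12 h), 1.94 and 1.96 (control 24 h) and 2.83 and 3.13 (MPC EV 24 h). The MPC EV 24 h libraries were the highest, and control 12 h replicate 2 the lowest. These levels rested on 134 to 296 fragments. The log2 difference at 24 h was 0.51 ± 0.26 and did not pass (adjusted p = 0.492). At 12 h it was 0.02 ± 0.26 (adjusted p = 0.964), and it turned to -0.39 without control 12 h replicate 2. The difference over time in MPC EV myotubes, 0.54 ± 0.26, did not pass (adjusted p = 0.202) except with the 4 libraries of the comparison alone (adjusted p = 0.0374) or when control 12 h replicate 1 or 2 was left out (adjusted p = 0.0202 and 0.0186).

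**Figure D3:**
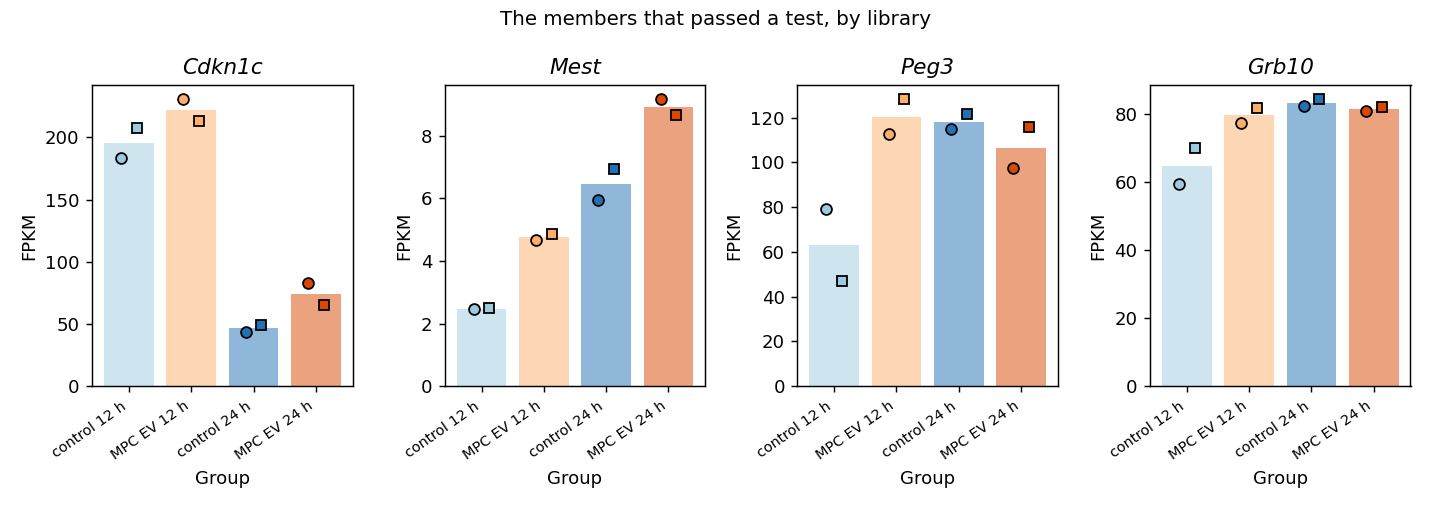
Level in FPKM of the 4 imprinted genes that passed in at least 1 comparison, with bars at the group mean and single libraries as points (circle, replicate 1; square, replicate 2). Cdkn1c is lower at 24 h in both treatments, Mest is lowest in control 12 h and highest in MPC EV 24 h, and Peg3 and Grb10 are lowest in the 2 control 12 h libraries.

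The 3 genes of the Dlk1 to Dio3 domain on distal chromosome 12 were near the detection limit. Rian (ENSMUSG00000097451, chr12:109603940-109661716), a noncoding RNA that hosts small nucleolar RNAs, was at 0.383 and 0.380 FPKM (control 12 h), 0.343 and 0.404 (MPC EV 12 h), 0.207 and 0.129 (control 24 h) and 0.235 and 0.199 (MPC EV 24 h). The 4 libraries at 12 h lay above the 4 at 24 h. With the minimum mean lowered to 0.1 FPKM, which brings in these 3 genes, the log2 difference over time was -0.40 ± 0.13 in controls and did not pass (adjusted p = 0.0947).

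Dlk1 (ENSMUSG00000040856, chr12:109452823-109463336), a transmembrane protein with EGF-like repeats that acts in muscle and fat differentiation, was at 0.390 and 0.249 FPKM (control 12 h), 0.161 and 0.211 (MPC EV 12 h), 0.316 and 0.373 (control 24 h) and 0.145 and 0.299 (MPC EV 24 h). The MPC EV libraries were lower than the controls at each time. In the same test the difference was -0.25 ± 0.16 at 12 h (adjusted p = 0.323) and -0.23 ± 0.16 at 24 h (adjusted p = 0.700). Meg3 (ENSMUSG00000021268, chr12:109541001-109571726) ranged from 0.0487 to 0.177 FPKM over the 8 libraries, with 13 to 51 fragments. Its 12 h difference was -0.13 ± 0.14 (adjusted p = 0.525). None of the differences of these 3 genes passed.

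Read against all tested genes, 2 of the 7 tested members (Mest and Peg3) rose with MPC EVs at 12 h and 0 fell, where 18.6% of all 10981 genes passed, 4.36% higher and 14.3% lower. The members' median log2 difference was 0.18 against -0.12 over all genes. Median-ratio scaling moved the latter to 0.01 and gave 736 genes higher and 548 lower, against 479 and 1566, with 3 members higher (Mest, Peg3 and Grb10). At 24 h none of the 7 passed in limma, with 2 at an unadjusted p under 0.05, where 3.57% of all genes passed (2.61% higher and 0.956% lower) and 1561 had an unadjusted p under 0.05. The medians were 0.12 and -0.03. For the difference between the 24 h and 12 h effects, none of the 7 and 0% of all genes passed, with 4 members and 2014 genes at an unadjusted p under 0.05. Without control 12 h replicate 1, 2 members passed (Cdkn1c and Peg3), and 1960 of all genes were higher and 1708 lower.

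Over time in control myotubes, 3 of the 7 rose (Mest, Peg3 and Grb10) and 1 fell (Cdkn1c), where 17.8% of all genes passed, 7.54% higher and 10.3% lower. In MPC EV myotubes 1 rose (Mest) and 1 fell (Cdkn1c), where 18.3% passed, 12.9% higher and 5.4% lower. With median-ratio scaling 816 genes were higher and 839 lower there, against 1420 and 593, and the same 2 members passed. The 12 h comparison and the comparison over time in controls share the control 12 h libraries, and Mest and Peg3 passed in both. Leaving out control 12 h replicate 2 raised the number of members that passed higher at 12 h and over time in controls. It raised the number of all genes that passed higher in both as well. Leaving out either MPC EV 12 h library took the 12 h number to 0, while over all genes 70 were then higher and 142 lower without replicate 1, and 76 and 199 without replicate 2. Leaving out any library outside control 12 h lowered the number passing over time in controls, both of members and over all genes. At 24 h leaving out control 12 h replicate 1 or replicate 2 raised the number passing, both of members and over all genes.

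**Figure D4:**
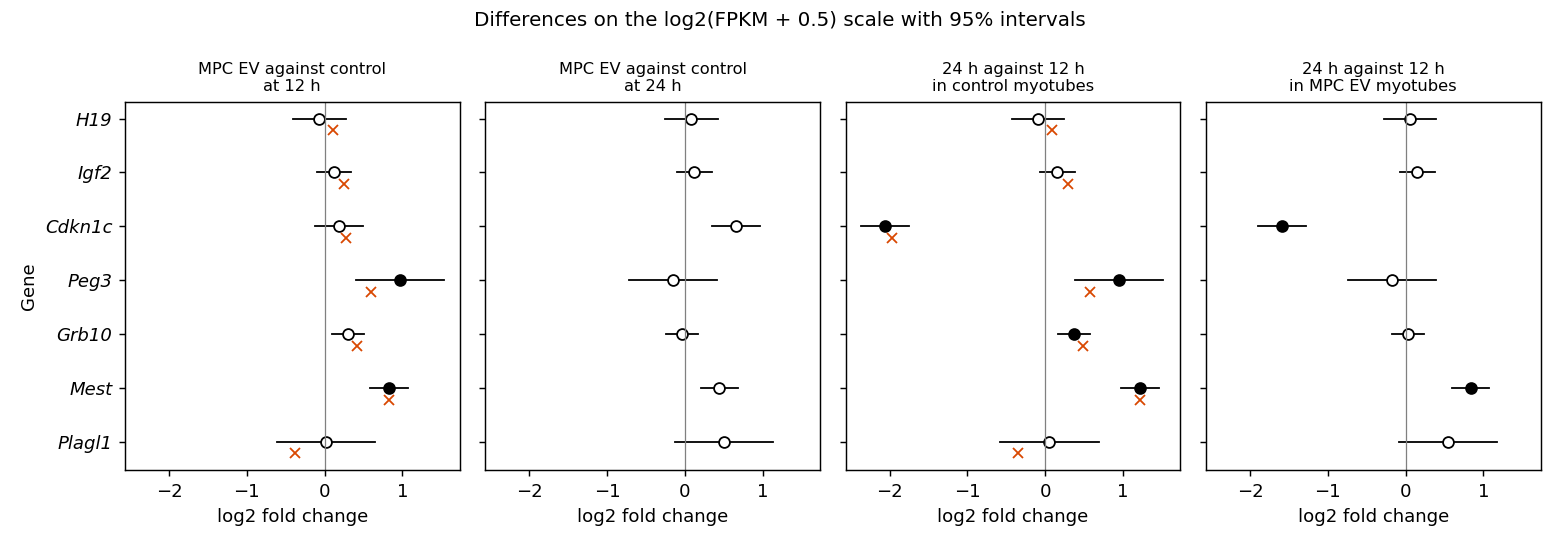
Log2 difference (log2(FPKM + 0.5) scale) of the 7 tested imprinted genes in 4 comparisons, with 95% intervals, where filled circles passed at an adjusted p under 0.05 and open circles did not. Orange crosses give the value without control 12 h replicate 2 in the panels that use that group. H19, Igf2, Cdkn1c and Grb10 lie farther right there, Peg3 and Plagl1 lie farther left, and Mest hardly moves.

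A wider list of 54 imprinted genes, of which 51 were in the table and 29 were tested, was read against the same shares of all genes. At 12 h 2 rose with MPC EVs and 2 fell, where 4.36% of all genes were higher and 14.3% lower, with a list median of -0.002 against -0.12 over all genes. Zdbf2, a paternally expressed gene, was at 1.78 and 0.144 FPKM in the 12 h controls and at 5.60 and 6.41 FPKM with MPC EVs. Its log2 difference was 2.42 ± 0.57 (adjusted p = 0.0359), and it was 1.51 without control 12 h replicate 2 and 3.33 without replicate 1, which both passed. Gnas, which encodes the stimulatory G protein alpha subunit, was at 12.9 and 16.4 FPKM in the 12 h controls and at 22.9 and 21.7 FPKM with MPC EVs. It rose by 0.60 ± 0.15 (adjusted p = 0.0405).

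Ndn, the growth suppressor necdin, fell at 12 h by 0.47 on the log2 scale (adjusted p = 0.0289). Peg10, a gene derived from a retrotransposon, fell by 0.41 (adjusted p = 0.0467). Neither passed with median-ratio scaling. With the GC and length correction both values were -0.55, and Peg10 passed (adjusted p = 0.0220) while Ndn did not (adjusted p = 0.0532). Without control 12 h replicate 2 the value for Peg10 was -0.36 and did not pass (adjusted p = 0.0908). No 12 h call on this list held with each library left out, and the number passing over all genes also changed widely. At 24 h none of the 29 passed, where 3.57% of all genes did. The values for Gnas and Peg10 were 0.74 (adjusted p = 0.0561) and -0.47 (adjusted p = 0.0841). Over time 4 of the 29 fell in controls and 0 rose, where 10.3% of all genes were lower and 7.54% higher, and 2 fell with MPC EVs, where 5.4% were lower. Ddc, the enzyme that makes dopamine and serotonin, had log2 differences of -1.58 in controls and -1.60 in MPC EV myotubes, and Osbpl5, a lipid transfer protein gene, of -0.40 in each. H13 (-0.38) and Tfpi2 (-0.78) passed in controls. Tfpi2 did not pass with the GC and length correction (-1.14, adjusted p = 0.0824). These counts over time changed with the library left out, in controls and in MPC EV myotubes, and so did those over all genes. In MPC EV myotubes no call on this list held with each library left out.

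Around H19 and Igf2, 12 of 21 listed chromosome 7 neighbours were tested, some of them imprinted and others not. At 12 h 1 of the 12 rose and 2 fell, where 4.36% of all genes were higher and 14.3% lower. Dhcr7, the last enzyme of cholesterol synthesis, rose by 0.56 (adjusted p = 0.0196). Ctsd, the lysosomal protease cathepsin D, and Syt8, a synaptotagmin, fell, with log2 differences of -0.44 (adjusted p = 0.00793) and -1.01 (adjusted p = 0.0183). With the 4 libraries of the comparison alone none of the 12 passed, where 2 of all genes were higher and 9 lower. At 24 h 1 rose and 0 fell, where 2.61% of all genes were higher and 0.956% lower. The gene that rose was Tnni2, the fast skeletal troponin I (log2 difference 0.71, adjusted p = 0.0429). Its level was 143 and 142 FPKM in control and 251 and 218 in MPC EV libraries. Tnnt3, the fast troponin T gene beside it, had a log2 difference of 0.40 (adjusted p = 0.139).

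Over time 5 of the 12 fell and 1 rose in controls, where 10.3% of all genes were lower and 7.54% higher, and 3 fell and 1 rose with MPC EVs, where 5.4% were lower and 12.9% higher. Syt8 had a log2 difference of -1.93 in controls (adjusted p = 0.00143) and -1.65 with MPC EVs (adjusted p = 0.00313), and Dhcr7 of -0.71 (adjusted p = 0.00672) and -0.88 (adjusted p = 0.00378). Osbpl5, which is on both lists, was the third to fall in both treatments. Ctsd (-0.35, adjusted p = 0.00924) and Lsp1, an actin-binding protein gene (-0.50, adjusted p = 0.0194), fell in controls. Mrpl23, a mitochondrial ribosomal protein gene next to H19, rose by 0.32 in controls (adjusted p = 0.0412) and 0.34 with MPC EVs (adjusted p = 0.0342). The rise with MPC EVs was 0.14 and did not pass with the GC and length correction (adjusted p = 0.141). It did not pass with median-ratio scaling either. Neither rise of Mrpl23 passed when any library outside control 12 h was left out. These counts changed with the library left out, in controls and with MPC EVs, and so did those over all genes. Most of the falls in controls did not hold when either control 24 h library was left out.

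Of 11 genes around the Dlk1 to Dio3 domain 6 were tested. At 12 h 2 of them fell, where 14.3% of all genes were lower. They were Slc25a29, a mitochondrial carrier, by 0.72 (adjusted p = 0.0315) and Evl, an actin regulator, by 0.38 (adjusted p = 0.0419). With median-ratio scaling, quantile normalization or the GC and length correction, neither passed. Neither passed without control 12 h replicate 2 (adjusted p = 0.0534 and 0.0872). At 24 h none of the 6 passed, where 3.57% of all genes did. Over time Wars, a tRNA synthetase gene, rose by 0.60 in controls (adjusted p = 0.00770) and 0.70 with MPC EVs (adjusted p = 0.00542). Slc25a29 was lower over time in controls, at -0.99 (adjusted p = 0.00983). Wars did not pass in controls without either control 24 h library, or with MPC EVs without MPC EV 24 h replicate 1, and Slc25a29 did not pass over time without control 24 h replicate 2. At 12 h no rise or fall among these or the chromosome 7 neighbours held with each library left out. At 24 h no rise of the latter did. The numbers passing over all genes changed as well. Tnni2 did not pass when any library outside control 12 h was left out.

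Among 19 genes of the IGF pathway 15 were tested. At 12 h 4 rose with MPC EVs and 2 fell, where 4.36% of all genes were higher and 14.3% lower. The binding protein genes Igfbp7 and Igfbp2 fell, with log2 differences of -0.999 (adjusted p = 0.00372) and -0.67 (adjusted p = 0.00985). Irs1, the adaptor that relays the receptor signal, rose by 0.98 (adjusted p = 0.00799) and Igfbp3 by 0.40 (adjusted p = 0.0242). These 4 also passed with a correction for GC and length. The receptor genes Igf1r and Insr rose by 0.60 (adjusted p = 0.0382) and 0.48 (adjusted p = 0.0240). With that correction their values were 0.31 and 0.19 and did not pass (adjusted p = 0.244 and 0.312). Igf2r, the imprinted receptor that clears IGF2, had a log2 difference of 0.25 (adjusted p = 0.229), and the ligand Igf1 lay between 0.191 and 0.933 FPKM and was not tested. At 24 h 2 rose, Igfbp3 (0.82) and Irs1 (0.88), and 2 fell, Igfbp7 (-0.81) and Igfbp2 (-0.54). Of all genes 2.61% were higher and 0.956% lower there. Over time 3 rose and 1 fell in controls, where 7.54% and 10.3% of all genes did, and 4 rose with MPC EVs, where 12.9% did. Igfbp5, a binding protein gene of muscle differentiation, rose by 1.51 in controls (adjusted p = 0.00212) and 1.20 with MPC EVs (adjusted p = 0.00563), and Insr by 0.82 (adjusted p = 0.00295) and 0.58 (adjusted p = 0.0110). Igf2bp2 (0.25) and Akt1 (-0.30) also passed in controls, and Igfbp3 (0.59) and Igfbp7 (0.43) with MPC EVs. The value for Akt1 was -0.21 without control 12 h replicate 2 and did not pass. With the GC and length correction it was -0.17 and did not pass (adjusted p = 0.0618). That for Igf2bp2 was 0.20 without control 12 h replicate 1 and did not pass. The counts changed in all 4 comparisons with the library left out, as did those over all genes. No rise held with each library left out at 12 h, at 24 h or over time with MPC EVs. No fall did at 24 h.

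The genes whose log2 level followed H19 most closely over the 8 libraries were Tmed1 (Pearson's r 0.983), Ntan1 (0.957), Atp5b (0.948), Etfb (0.947) and Uckl1 (0.944). All 5 had their highest value in control 12 h replicate 2, as H19 did. Those closest to Igf2 were Gys1 (0.975), Hspb8 (0.967), Atp6v0a1 (0.963), Dgkd (0.960) and Dnmbp (0.958). All 5 were lowest in control 12 h replicate 1 and highest in an MPC EV 24 h library, as Igf2 was. These values are a description over 8 libraries that share their depth scaling.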

How the data were processed

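The authors deposited one table of FPKM values per gene and library. The submitters' processing notes name HISAT2, DESeq2 (version 2) and mm10, with no role or order. For the counting tool and annotation, the sources used here give no name. FPKM times transcript length gave whole fragments (within 0.02) in all 8 libraries for 65.8% of 21185 genes and for the 10 members, for Cdkn1c and Mest only with a length other than the longest transcript (GENCODE vM21), so the library totals and fragment numbers are inferred. Intervals and fragment numbers do not cover variation before sequencing.

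Tests used limma 3.58.1 (R 4.3.3) on log2(FPKM + 0.5), for 10981 genes averaging 1 FPKM or more, with 1 mean per group, 4 residual degrees of freedom, an intensity trend and two-sided p-values adjusted by Benjamini-Hochberg at 0.05. No count test was run. The script was tested on simulated data with 200 changed genes. A log2 change of 0.5 was recovered in 0% to 20% of them, depending on the comparison. A change of 1 was recovered in 49.5% to 77.5%. A difference that did not pass can therefore be a change that was missed. The members and lists were chosen with earlier results of these data known. The text names the 10 members, at most the 5 passing genes of smallest adjusted p per list and comparison, the genes beside H19, the IGF receptors and Igf1, and the 5 genes most like H19 and Igf2. Snrpn, Zim2 and Peg13 were not analysed here. Pairing by replicate number was checked from deviations and is treated as not given. Alternatives were other pseudocounts, filters, scalings, a GC and length correction, no trend, the 4 libraries of a comparison alone, a block, and each library left out.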

Additional observations from a re-analysis of the deposited data

How the results depend on the processing

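The falls of Cdkn1c and the rises of Mest over time passed in all alternatives. The number of members passing at 12 h, 2 in the main result, was 1 without a filter on low values, 4 with quantile normalization, 4 with the GC and length correction, 0 with the 4 libraries alone, and 0 to 4 when a library was left out. At 24 h it was 0, and became 1 with quantile normalization, with the GC and length correction and with the 4 libraries alone, and 0 to 2 with a library left out. For the difference of effects it was 0, and 0 to 2 with a library left out. Over time in controls it was 4, became 2 without a filter and with the 4 libraries alone, and 2 to 5 with a library left out. For H19, whose differences never passed, the 12 h value was 0.070 with median-ratio scaling and 0.16 with the GC and length correction (-0.25 to 0.11 with a library left out). Its difference of effects was -0.11 with that correction (-0.027 to 0.33), its change over time in controls 0.041 (-0.27 to 0.085), and that in MPC EV myotubes -0.050 and -0.068 under the 2 settings (-0.0071 to 0.12). For Igf2 the values with a library left out were -0.013 to 0.25 at 12 h and -0.14 to 0.13 for the difference of effects. For Plagl1 quantile normalization gave -0.050 at 12 h and -0.044 over time in controls, and the GC and length correction -0.069 and -0.11, with ranges of -0.39 to 0.42 and -0.35 to 0.46. For Grb10 over time in MPC EV myotubes the values were -0.074 after median-ratio scaling, -0.029 after quantile normalization and -0.028 after the correction (-0.0065 to 0.073). The cause was not tested. Median-ratio scaling moved the median of all genes at 12 h from -0.12 to 0.01, and the genes higher and lower from 479 and 1566 to 736 and 548, and over time in MPC EV myotubes from 1420 and 593 to 816 and 839. The GC and length correction gave 787 and 644 at 12 h and 1094 and 1054. With the 4 libraries alone, 2 and 9 genes passed at 12 h, 491 and 272 at 24 h, 157 and 323 over time in controls and 2187 and 1186 in MPC EV myotubes.

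Same-numbered libraries did not deviate together across groups (correlations of -0.613 to 0.241), so the replicate numbers were not taken to pair the libraries. With a replicate block, 1 member passed at 12 h, 0 at 24 h, 3 over time in controls and 2 in MPC EV myotubes. The block left 291 genes higher and 823 lower at 12 h, and 133 higher and 50 lower at 24 h, against 287 and 105 without it. With the numbers crossed over time in controls, 3 members passed and 611 genes were higher and 898 lower.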
